A study of Mus musculus with 6 samples.

Results

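Histone genes were followed in RNA-Seq libraries of bone marrow monocytes (BMDM) and brainstem microglia (BSM) of the mouse. The set held every row of the gene table whose symbol begins with Hist1h, Hist2h, Hist3h or Hist4h, with H2af or with H3f3, and the linker histone gene H1fx. The table listed 78 such genes among 35237, of which 64 were clustered Hist genes and 14 were variant genes, and H1f0 had no row. A second table of the same libraries, made with ALEXA-Seq, listed 81 histone entries among 36536, and 76 genes had 1 entry in each table. The rule reads symbols alone.

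Each cell type was represented by 3 libraries, labelled as biological replicates, from C57BL/6 mice of 6 weeks of age, with no treatment named in the labels. Cells were pooled from sets of mice, enriched on a Percoll gradient and sorted as CD11b+ CD45high CD115+ Ly6G- cells from marrow and CD11b+ CD45low CD115low Ly6G- cells from brain. By the labels and the study's sample table, replicates 1 were male and replicates 2 and 3 female, whereas its main text speaks of male mice. The comparison asked which transcripts tell marrow monocytes from resident microglia, and in bulk RNA of this kind fewer cells of a type and less RNA per cell cannot be told apart.

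Histones package DNA: pairs of H2A, H2B, H3 and H4 form the core of the nucleosome, and the linker histone H1 binds where the DNA enters and leaves it. The clustered genes supply histones while DNA is copied; they are short, mostly lack introns, and their mRNAs end in a conserved stem-loop in place of a poly(A) tail. The variant genes for the most part lie alone in the genome, carry introns and give polyadenylated mRNAs in dividing and resting cells alike. They encode proteins such as H2A.Z, macroH2A, H2A.X and H3.3 that replace the canonical forms at particular sites.

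The stem-loop separates both classes at the sequence level, so its sequence is shown for members on which the comparison turned. It was searched as a perfect stem of 6 pairs that opens with GG, around a loop of 4 bases with T in its first place and the next but one, in the GENCODE M21 transcripts (GRCm38) that share a gene identifier with the ALEXA-Seq table. It was found in 35 of 51 matched clustered genes (68.6%), in 1 of 13 matched variant genes (7.69%, H2afx) and in 79 of 55450 genes overall (0.142%). Capitals mark the stem-loop and lower case its neighbouring bases, as DNA letters, 5′ to 3′.
Hist1h4d: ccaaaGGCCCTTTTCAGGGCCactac
Hist1h1c: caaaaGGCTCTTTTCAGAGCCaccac
Hist1h1d: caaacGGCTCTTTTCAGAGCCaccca
Hist1h2be: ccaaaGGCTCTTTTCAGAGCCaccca
Hist2h3c1: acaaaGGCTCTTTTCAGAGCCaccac
H2afx: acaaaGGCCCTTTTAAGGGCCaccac
Hist1h1c and Hist1h1d share the stem-loop of Hist1h2be letter for letter, and so do Hist2h3c1, Hist1h1e and Hist1h2ab. The levels of these genes, given below, did not all differ in the same direction. Hist1h4d carries the stem-loop of other H4 genes such as Hist1h4c and Hist1h4f. H2afx, a variant gene with no intron, carries a stem-loop like those of the clustered genes. A missing match says only that these letters were not in the transcript model, since some models end at the stop codon.

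The libraries set limits on every level that follows. Values were FPKM (read fragments scaled by the length of the gene model and by the mapped reads of the library), and a member was tested if it reached an FPKM of 3 in at least 1 library. The BMDM libraries had 7270 to 7898 genes at an FPKM of 1 or more and the BSM libraries 5155 to 6518, and the FPKM of all genes summed to between 163199 and 194184 in BMDM and between 68288 and 75021 in BSM. By limma at an adjusted p under 0.05, 45.3% of the 6364 genes tested were called higher in BMDM (2883 genes) and 9.22% higher in BSM (587 genes), and the median of their log2 fold changes, BMDM over BSM, was 0.81. After quantile normalization the calls were 21.7% (1378 genes) and 19.3% (1227 genes) and the median was 0.02, so fold changes are also given relative to that median of 0.81 or after quantile normalization. All 6 monocyte markers were called higher in BMDM (summed FPKM 721 to 912 against 1.31 to 1.63) and all 6 microglia markers higher in BSM (813 to 945 against 17.7 to 20.3), as labelled. Of 8 granulocyte and progenitor markers, Mpo was the highest at 32.7, 181 and 67.1 in BMDM replicates 1, 2 and 3, their summed FPKM was 48.8, 346 and 90.1, and in BSM it did not pass 0.0714. The neuron markers summed to at most 0.249 in any library, whereas the 5 astrocyte markers summed to 9.52, 5.31 and 6.89 in BSM and to at most 0.0972 in BMDM. Nearly all of that was Slc1a3, an astrocyte glutamate transporter, at 9.51, 5.18 and 6.71 in BSM, and the defining gene Gfap was listed at 0 in all 6 libraries; the part of astrocytes in the BSM levels was not tested.

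Among clustered genes, the family with the widest gap in summed FPKM was H4, and linker histone genes differed in both directions. Clustered H2A also summed higher in BMDM, at 7.47, 18.7 and 11.5 against 2.83, 1.48 and 1.43 in BSM. Clustered H2B did so at 10.1, 19.0 and 14.7 against 7.63, 7.34 and 6.16. Of 64 clustered genes, 6 were listed at 0 in every library, 16 reached the FPKM minimum, and of these 10 were called higher in BMDM, 3 higher in BSM and 3 were not called. The share of all tested genes called in each direction was given above (45.3% and 9.22%), and the median log2 fold change of the 16 was 1.50 against 0.81 for all tested genes. After quantile normalization the calls were 6 for BMDM and 4 for BSM, and the median was 0.80. A gene that reached the minimum through BMDM alone had to be higher there, so these counts describe only the genes that passed. Without the filter, 51 of the 58 detected clustered genes had the higher mean in BMDM and 7 in BSM, and 38 did not overlap between cell types with BMDM higher and 3 with BSM higher. Among all 21167 detected genes, 30.0% did not overlap with BMDM higher and 7.32% with BSM higher. The share of all detected genes with the higher mean in BMDM was not counted. Counts of means, here and below, therefore stand without a share to compare.

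Hist1h4d, which encodes the core histone H4, had the highest mean of any clustered gene. It was at an FPKM of 43.6, 158 and 72.2 in BMDM replicates 1, 2 and 3, and at 4.86, 5.47 and 4.70 in BSM. The lowest BMDM library stood well above the highest BSM library, while BMDM replicate 2 stood far above the other BMDM libraries. The means were 91.3 ± 59.6 and 5.01 ± 0.407 (SD, n = 3 each), an 18.2-fold difference, and the log2 fold change on log2(FPKM + 1) was 3.74 ± 0.433 (SE, limma adjusted p = 0.000325), or 2.94 above the median of all tested genes. Without BMDM replicate 2 it was 3.25. Hist1h4d made up 80.5% to 81.9% of the summed clustered H4 FPKM in BMDM and 59.3% to 80.0% in BSM.

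Hist1h4c, a second H4 gene, was at 5.08, 19.2 and 10.1 in BMDM and at 2.19, 1.20 and 0.853 in BSM. The groups did not overlap, and the log2 fold change was 2.24 ± 0.446 (SE, adjusted p = 0.00429), with 1.52 after quantile normalization. Over all 12 clustered H4 genes, which were all detected, the mean was higher in BMDM for every gene. Their summed FPKM was 53.2, 196 and 89.6 in BMDM against 8.20, 7.25 and 5.88 in BSM, so that H4 was the largest clustered family in each BMDM library and stood below H1 and H3 in each BSM library.

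**Figure D1:**
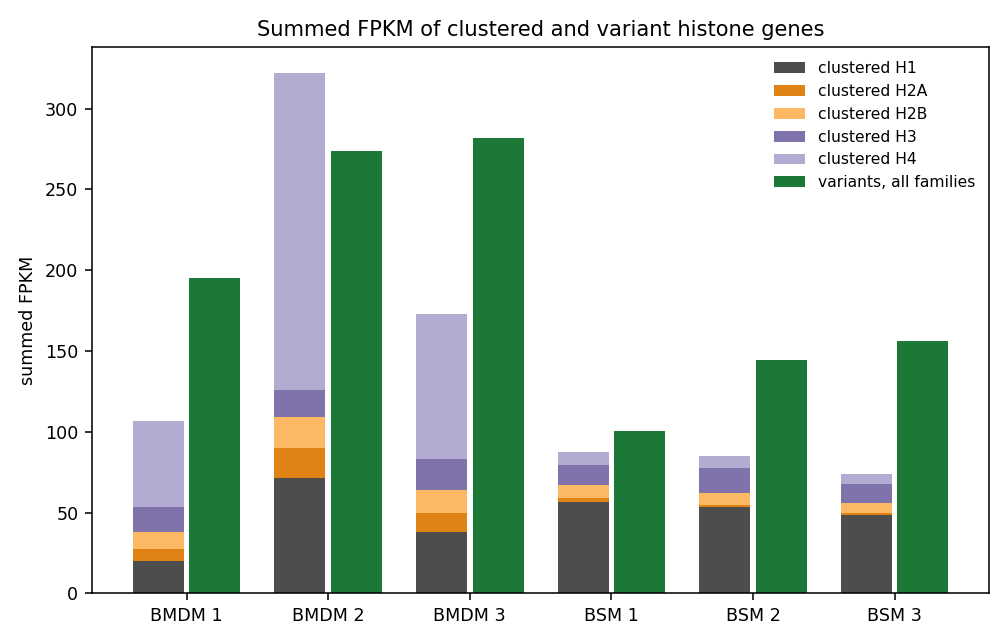
Summed FPKM in each library (vertical axis) of the clustered histone genes, stacked by family, and of the variant genes of all families. Clustered H4 FPKM reaches 196 in BMDM replicate 2 and stays at or below 8.20 in the BSM libraries, while clustered H1 is 48.5 to 56.3 in BSM.

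The linker histone genes differed in both directions. Hist1h1b, which encodes an H1 subtype typical of dividing cells, was at 5.48, 18.1 and 9.80 in BMDM and was listed at 0, 0 and 0.0164 in BSM. BSM was thus essentially without it in all 3 libraries, and no fold is given against values so close to 0; limma gave a log2 fold change of 3.45 ± 0.392 (SE, adjusted p = 0.000291), which depends on the pseudocount. Hist1h1a, the other subtype of that kind, was at 1.80, 3.19 and 3.26 in BMDM and at 0.0540, 0.115 and 0.115 in BSM, with a log2 fold change of 1.75.

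Hist1h1c and Hist1h1d, linker subtypes that are also made in resting cells, were higher in BSM. Hist1h1c was at 2.00, 7.10 and 7.09 in BMDM and at 14.2, 20.6 and 20.1 in BSM, with a log2 fold change of -1.71 ± 0.414 (SE, adjusted p = 0.00994). Hist1h1d was at 2.45, 4.56 and 3.54 in BMDM and at 16.6, 22.1 and 21.8 in BSM, with a log2 fold change of -2.25 ± 0.266 (SE, adjusted p = 0.000367). Every BSM library was above every BMDM library for both genes, and the means were 3.39-fold and 5.74-fold higher in BSM. They stood 2.52 and 3.05 below the median of all tested genes on the log2 scale, and remained called after quantile normalization at -2.49 and -3.04.

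Hist1h1e, the linker gene with the highest mean, did not separate the cell types. It was at 8.42, 38.4 and 14.3 in BMDM and at 25.4, 10.3 and 6.48 in BSM. The groups overlapped, with BMDM replicate 2 highest and BSM replicate 1 second, and the log2 fold change of 0.45 (95% interval -0.97 to 1.87, adjusted p = 0.553) turned to -0.31 after quantile normalization and to -0.12 without BMDM replicate 2. Without BSM replicate 1 the log2 fold change of Hist1h1e was 0.95, with no call (limma adjusted p = 0.194). Hist1h1t, the testis linker gene, did not pass 0.0834 in any library.

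The make-up of H1 does not depend on how a library is scaled. Hist1h1a and Hist1h1b together took 36.2%, 29.8% and 34.4% of the summed clustered H1 FPKM in BMDM and 0.0960%, 0.216% and 0.271% in BSM. Hist1h1c and Hist1h1d together took 22.1%, 16.3% and 27.9% in BMDM and 54.8%, 80.2% and 86.2% in BSM. Neither pair overlapped between cell types. The summed clustered H1 FPKM itself overlapped, at 20.2, 71.4 and 38.0 in BMDM and 56.3, 53.3 and 48.5 in BSM. In ratio, Hist1h1c to Hist1h1e was 0.238, 0.185 and 0.494 in BMDM and 0.561, 1.99 and 3.10 in BSM, with the ALEXA-Seq values giving 0.313, 0.245 and 0.688 against 0.928, 3.16 and 4.98. These ratios were chosen after the values were seen and are given with no test; an exact permutation test of 3 libraries against 3 cannot go below p = 0.1.

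**Figure D2:**
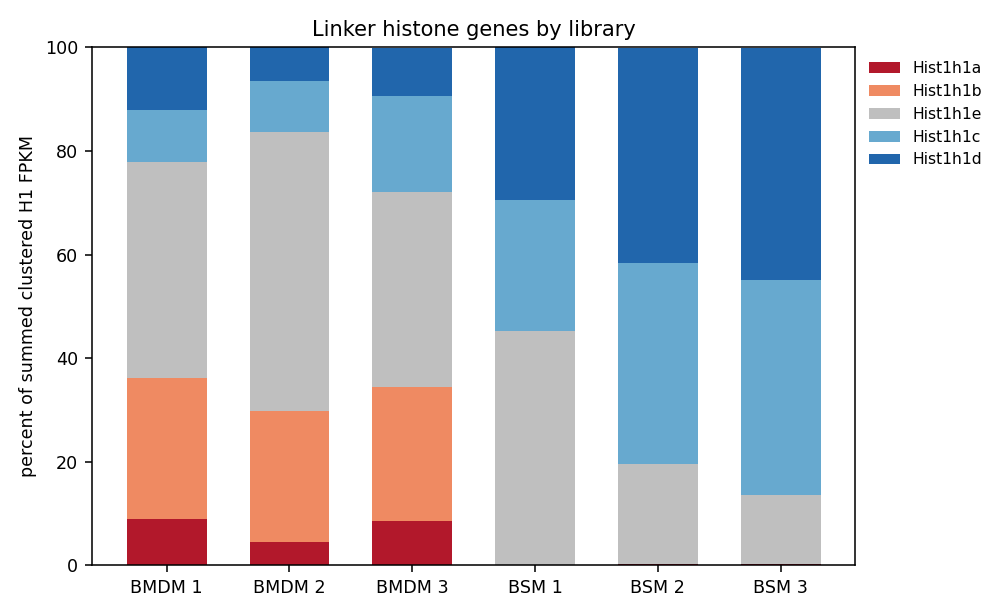
Share of each linker gene in the summed clustered H1 FPKM (vertical axis, percent) for each library, with Hist1h1t left out because it stays below 0.157%. Hist1h1a and Hist1h1b (reds) fill 29.8% to 36.2% of the BMDM bars and at most 0.271% of the BSM bars, where Hist1h1c and Hist1h1d (blues) fill 54.8% to 86.2%.

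The promoters of these linker and H4 genes are shown because genes of 1 family moved in opposite directions. RefSeq windows of 300 bases around the gene start (GRCm38.p6) were matched for 58 clustered and 10 variant genes and searched on both strands for TATAAA, for CCAAT, for the octamer ATTTGCAT and for AAACACA, the H1 box, each separately, so that TATAAA and AAACACA may share letters. Capitals mark every match, and each window is written 5′ to 3′ along the gene.
Hist1h1b (chr13:21780576-21780875, strand -): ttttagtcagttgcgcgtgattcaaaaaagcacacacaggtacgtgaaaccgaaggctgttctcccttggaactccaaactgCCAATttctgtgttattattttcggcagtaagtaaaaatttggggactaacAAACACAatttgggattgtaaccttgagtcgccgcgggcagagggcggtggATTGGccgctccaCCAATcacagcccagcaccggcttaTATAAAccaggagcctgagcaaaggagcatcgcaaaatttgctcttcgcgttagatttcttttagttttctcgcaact
Hist1h1c (chr13:23738557-23738856, strand +): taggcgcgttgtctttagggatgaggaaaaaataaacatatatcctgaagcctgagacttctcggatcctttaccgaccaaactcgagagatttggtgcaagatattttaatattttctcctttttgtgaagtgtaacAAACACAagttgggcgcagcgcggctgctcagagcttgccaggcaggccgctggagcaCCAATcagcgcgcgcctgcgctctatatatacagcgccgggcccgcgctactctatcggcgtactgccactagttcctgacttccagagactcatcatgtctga
Hist1h1d (chr13:23554782-23555081, strand +): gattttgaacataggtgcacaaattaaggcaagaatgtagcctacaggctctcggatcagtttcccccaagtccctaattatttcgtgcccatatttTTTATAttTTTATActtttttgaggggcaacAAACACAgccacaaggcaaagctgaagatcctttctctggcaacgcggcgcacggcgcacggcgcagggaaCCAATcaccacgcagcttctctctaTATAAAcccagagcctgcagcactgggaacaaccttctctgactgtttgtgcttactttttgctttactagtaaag
Hist1h4d (chr13:23581318-23581617, strand +): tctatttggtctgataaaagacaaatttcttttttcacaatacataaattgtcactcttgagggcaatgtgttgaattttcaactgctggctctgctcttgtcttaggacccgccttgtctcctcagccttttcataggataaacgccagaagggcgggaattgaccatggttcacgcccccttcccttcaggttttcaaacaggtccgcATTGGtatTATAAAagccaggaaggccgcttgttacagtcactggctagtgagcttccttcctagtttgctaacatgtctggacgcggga
The H1 box was in 5 of the 6 linker promoters (83.3%) against 15.5% of clustered promoters and 8.22% of 27025 promoters of all genes. Hist1h1b, called higher in BMDM, and Hist1h1c and Hist1h1d, called higher in BSM, held it, and Hist1h1a, also called higher in BMDM, did not. CCAAT was in every matched promoter of clustered H1, H2A, H2B and H3 genes, in 27.3% of the H4 promoters, in 70.0% of the variant promoters and in 41.1% of all promoters. TATAAA was in 58.6% of clustered, 10.0% of variant and 15.7% of all promoters, and the octamer was in 50.0% of H2B, 41.2% of H2A and 1.97% of all promoters. A match in letters is a description of the window and not of a bound site.

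The core histones of the H2B and H3 families held the remaining exceptions. Hist1h2be, an H2B gene, was at 0.810, 1.64 and 1.26 in BMDM and at 5.30, 3.42 and 2.97 in BSM. It was higher in each BSM library, with means 3.15-fold apart and a log2 fold change of -1.12 ± 0.289 (SE, adjusted p = 0.0131). Its locus in the table spans 37383 bases on chr13 (mm9) and so runs over other histone genes, which makes its level uncertain. Hist2h3c1, an H3 gene, was at 6.53, 6.01 and 11.1 in BMDM and at 8.67, 9.18 and 8.00 in BSM. The groups overlapped at a log2 fold change of -0.16 (95% interval -0.79 to 0.48, adjusted p = 0.647), and after quantile normalization it was called higher in BSM at -0.90 (adjusted p = 0.0261). Hist1h3d, the other H3 gene that passed, was at 8.00, 5.50 and 5.58 in BMDM and at 3.81, 4.76 and 3.06 in BSM, which did not overlap but gave an adjusted p of 0.0822 at a log2 fold change of 0.59, with -0.13 after quantile normalization. No clustered H3 gene was thus called in FPKM as deposited, and the summed clustered H3 FPKM was 15.7, 16.5 and 18.9 in BMDM and 12.8, 15.6 and 11.7 in BSM, next to the far wider gap of H4.

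A single gene of each of these families, H4 and H3, can be followed as a ratio within each library. The ratio of Hist1h4d to Hist2h3c1 was 6.68, 26.3 and 6.49 in BMDM and 0.560, 0.596 and 0.588 in BSM. In ALEXA-Seq values it was 6.80, 23.7 and 6.89 against 0.503, 0.564 and 0.577. The BSM libraries lay within a narrow band in both tables, and the highest of them lay below the lowest BMDM library by over a factor of 10 in each.

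Of the H2A genes, Hist2h2ac was at 2.49, 4.98 and 2.60 in BMDM and at 1.38, 0.171 and 0.208 in BSM. It was higher in each BMDM library, at a log2 fold change of 1.49 ± 0.387 (SE, adjusted p = 0.0133), and lost its call after quantile normalization (0.71, adjusted p = 0.242). The other 6 clustered genes called higher in BMDM (Hist1h1a above, Hist1h2ab, Hist1h2ak, Hist1h2bl, Hist1h4a and Hist1h4f) were at an FPKM of 0.966 to 6.63 in BMDM and did not pass 0.338 in BSM, with log2 fold changes of 1.33 to 1.79 and adjusted p-values of at most 0.0177. After quantile normalization Hist1h4a (adjusted p = 0.360), Hist1h4f (adjusted p = 0.0696) and Hist1h2ab (adjusted p = 0.0609) lost their calls. Hist1h2ab was listed at 0 in all BSM libraries. The remaining 48 clustered genes never reached the minimum, and 39 of them had the higher mean in BMDM and 3 in BSM. As above, these means stand without a share of all genes. For 13 clustered genes all BSM libraries were listed at 0 and all BMDM libraries were above 0. The share of all genes with that pattern was not counted, and the BSM libraries had fewer genes of any kind at an FPKM of 1 or more. Whether the count is particular to histone genes was therefore not tested.

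**Figure D3:**
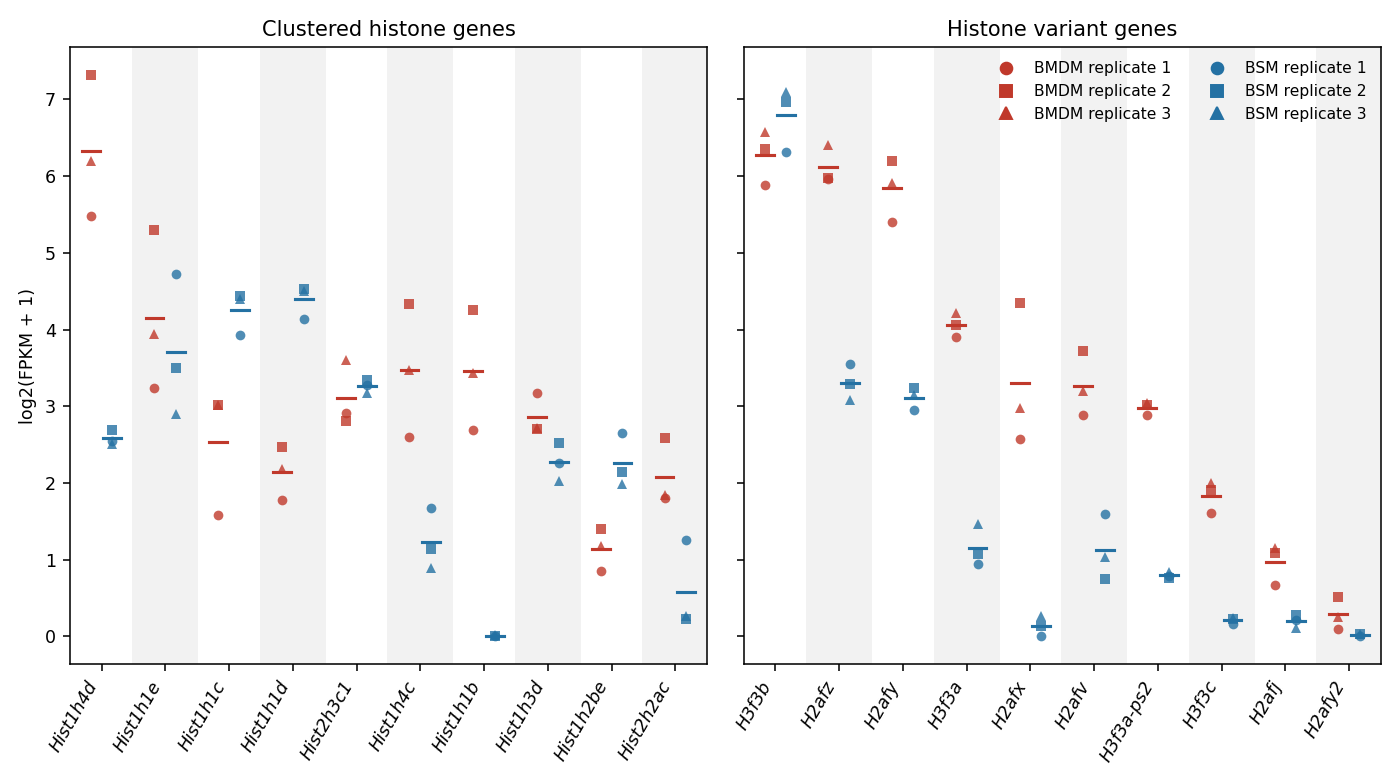
Level of the 10 clustered and the 10 variant histone genes with the highest mean FPKM, as log2(FPKM + 1) on the vertical axis, with 1 symbol for each library and a bar for the group mean. Hist1h1c, Hist1h1d and Hist1h2be are the genes whose BSM symbols all lie above the BMDM symbols.

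Libraries within a cell type did not contribute alike. BMDM replicate 2 had the highest FPKM of the BMDM libraries for 45 of 58 detected clustered genes but for 4 of 12 detected variant genes. The summed clustered FPKM was 107, 322 and 173 in BMDM and 87.8, 85.0 and 73.7 in BSM. The share of all genes highest in BMDM replicate 2 was not counted. That library also had the highest FPKM sum of all genes, 194184 against 163199 and 173493 in BMDM replicates 1 and 3. The same library had the highest granulocyte and progenitor marker sum given above (346) and the highest FPKM of erythroid markers, 38.8 against 6.81 and 6.92 in the other BMDM libraries; the part of such cells in the clustered levels was not tested. Without BMDM replicate 2 the tested clustered genes still gave 10 calls higher in BMDM and 3 higher in BSM. BSM replicate 1 listed 41 clustered genes at 0, BSM replicates 2 and 3 listed 35 and 32, and the BMDM libraries listed 9 to 12. The study's table of RNA quality lists an RNA integrity for BSM replicate 1 far below that of every other library. It also lists the lowest RNA concentration there. The part of RNA quality in the levels of BSM replicate 1 was not tested. Without BSM replicate 1 the calls were again 10 and 3.

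The clustered genes were also split by the span of their locus in the deposited table. The 16 clustered genes whose locus (mm9) spans 1000 bases or more summed to an FPKM of 27.5, 38.3 and 40.6 in BMDM and 51.0, 64.1 and 59.1 in BSM. The 48 shorter ones summed to 79.2, 284 and 132 in BMDM and 36.8, 20.9 and 14.6 in BSM. The cell types did not overlap in either sum. Of the long genes 6 were tested, with 1 called higher in BMDM, 3 higher in BSM and 2 not called. Of the short genes 10 were tested, with 9 called higher in BMDM, 0 higher in BSM and 1 not called. Among the short genes tested, only Hist1h4d and Hist1h1e reached the minimum in a BSM library. The others passed through BMDM alone and had to be higher there. All long genes tested but Hist1h2bl reached the minimum in a BSM library. Over all tested genes, 45.3% were called higher in BMDM and 9.22% higher in BSM. The direction of the long sum rests on Hist1h1c (1560 bases) and Hist1h1d (2964 bases), which made up 60.5% to 70.8% of it in BSM and 16.2% to 30.5% in BMDM. Without these genes it turned, to 23.0, 26.6 and 30.0 in BMDM against 20.1, 21.3 and 17.3 in BSM, and 12 of the 16 long genes had the higher mean in BMDM and 4 in BSM. Hist1h4d spans 423 bases and Hist1h1b 743, and the limit of 1000 bases was set after the values were seen, so no test is given. Libraries were built from cDNA fragments of a selected size, and the part of transcript length in these values was not tested.

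**Figure D4:**
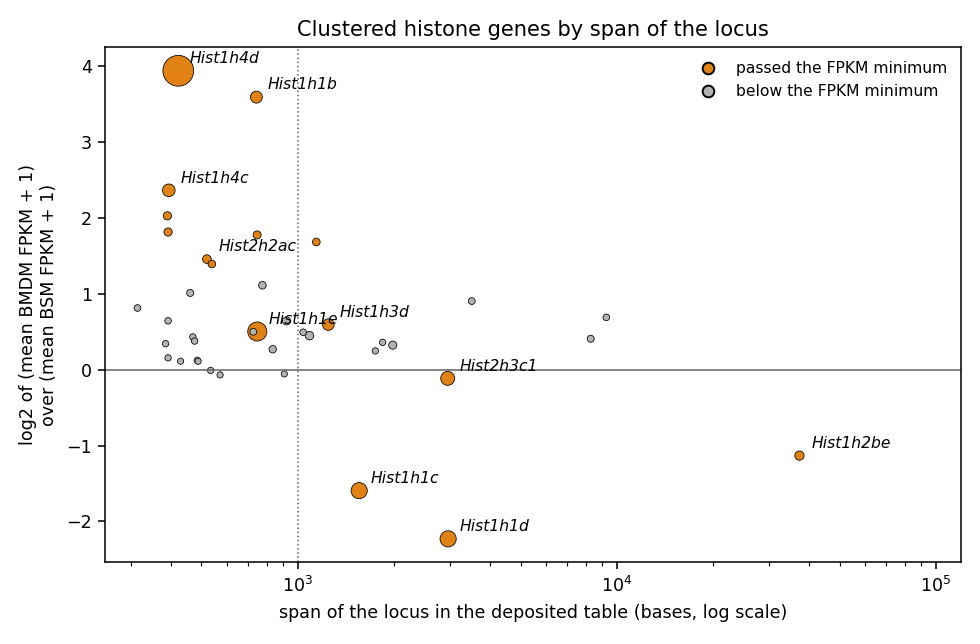
Span of the locus of each clustered gene detected in both cell types (horizontal axis, bases, log scale) against the log2 of its mean BMDM FPKM + 1 over its mean BSM FPKM + 1, with the area of a point growing with mean FPKM and the dotted line at 1000 bases. Hist1h4d and Hist1h1b stand high at the short end, and Hist1h1c, Hist1h1d and Hist1h2be lie below 0 among the long loci.

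Transcript models were set beside the calls as well. In GENCODE M21 the models of 18 clustered genes run at least 100 bases past the stem-loop, those of 17 end sooner and 16 held no match. All 3 genes called higher in BSM had a model that runs on, by 840 bases in Hist1h1c, 4884 in Hist1h1d and 1861 in Hist1h2be. Among the 8 tested genes with such models 3 were called higher in BMDM, 3 higher in BSM and 2 were not called. The 3 tested genes with a model that ends sooner and the 3 tested genes with no match were all called higher in BMDM. None of the genes in these groups of 3 reached the minimum in a BSM library. They passed through BMDM alone and had to be higher there, so their calls say nothing about the models. Of all tested genes, 45.3% were called higher in BMDM and 9.22% higher in BSM. A model that runs on was thus found in both directions, as Hist1h4d shows with 770 bases past its stem-loop. Whether the reads came from mRNAs that end at the stem-loop or from longer, polyadenylated forms was not tested, since the tables hold 1 value per gene.

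Among variant genes, 6 of the 7 that passed the minimum were called higher in BMDM, 0 higher in BSM (limma; 0 also at an unadjusted p under 0.05) and 1, H3f3b, was not called. The shares of all tested genes were 45.3% and 9.22%, and 3 of the 7 reached the minimum in a BSM library. Their median log2 fold change was 2.73 against 0.81 for all tested genes; quantile normalization left it at 1.95 with 6 calls for BMDM and 1, H3f3b, for BSM. Of all 14, 2 were listed at 0 in every library and 5 stayed below the minimum. Of the 12 detected genes 10 had the higher mean in BMDM and 2 in BSM, with no share of all genes counted for such means.

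H3f3a and H3f3b encode the identical protein H3.3 from separate genes, and their levels were unlike. H3f3a was at 13.9, 15.7 and 17.6 in BMDM and at 0.917, 1.10 and 1.75 in BSM. Its groups were far apart and each was tight, with means of 15.7 ± 1.85 and 1.26 ± 0.439 (SD, n = 3 each), a 12.5-fold difference, and a log2 fold change of 2.90 ± 0.244 (SE, adjusted p = 6.46e-05). H3f3b was at 58.1, 80.7 and 94.3 in BMDM and at 79.0, 124 and 137 in BSM. It was the highest histone gene in every BSM library, and its groups overlapped, since BSM replicate 1 lay below BMDM replicates 2 and 3. Its log2 fold change was -0.53 (95% interval -1.21 to 0.15, adjusted p = 0.16); it was called higher in BSM after quantile normalization (-1.19, adjusted p = 0.016) and without BSM replicate 1 (-0.76, adjusted p = 0.029).

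The ratio of H3f3b to H3f3a put the genes on a scale free of library scaling. It was 4.17, 5.16 and 5.34 in BMDM and 86.1, 113 and 77.9 in BSM in FPKM. The ALEXA-Seq values gave a ratio of 0.587, 0.609 and 0.647 in BMDM and 13.3, 9.16 and 10.1 in BSM. On the log2 scale the cell types differed by 4.23 in FPKM and 4.12 in ALEXA-Seq values, so the difference between cell types was alike in both tables whereas the ratio itself was not.

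The tables also parted on the processed copies of H3f3a. H3f3a-ps2, a pseudogene, was at 6.42, 7.12 and 7.21 in BMDM and at 0.727, 0.692 and 0.788 in BSM in FPKM, and was called higher in BMDM at 2.19 ± 0.220 (SE, adjusted p = 0.000161). H3f3c, another copy, was at 2.04, 2.74 and 2.99 in BMDM and at 0.122, 0.175 and 0.181 in BSM, below the minimum. Both followed H3f3a, and in ALEXA-Seq values they were listed at 0 in all BSM libraries and did not pass 1.07 and 1.10 in BMDM. All of the H3f3a-ps2 transcript matches another gene's transcript at 95% identity or more, so its level is uncertain, and with H3f3a-ps2 and H3f3c added to H3f3a the FPKM was 22.4, 25.5 and 27.8 in BMDM and 1.77, 1.97 and 2.72 in BSM.

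H3f3a was also, beside B2m, a reference gene of the study's quantitative PCR, so its primer sequences are shown, in lower case because no base is singled out.
H3f3a forward: cgtgaaatcagacgctatcagaa
H3f3a reverse: tcgcaccagacgctgaaag
In GENCODE M21 both primers matched H3f3a without a mismatch and framed 72 bases. They did the same in the pseudogenes H3f3a-ps1, H3f3a-ps2, Gm12657 and Gm6421 and in H3f3c, while each had at least 7 mismatches to H3f3b. The FPKM of H3f3a itself was 12.5-fold higher in BMDM, as given above, and its log2 fold change after quantile normalization was 2.10. The FPKM ratio of B2m to H3f3a was 36.7, 35.3 and 34.4 in BMDM and 222, 280 and 170 in BSM. No quantitative PCR value was analysed here.

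All 4 tested H2A variants were called higher in BMDM, beside 45.3% of all tested genes. Of these variants, H2afz and H2afy reached the minimum in a BSM library. H2afx and H2afv passed through BMDM alone and had to be higher there. H2afz, which encodes H2A.Z, was at 61.4, 61.9 and 84.0 in BMDM and at 10.7, 8.77 and 7.46 in BSM. Its groups were far apart, the means were 7.69-fold apart, and the log2 fold change was 2.81 ± 0.245 (SE, adjusted p = 7.99e-05). H2afy, which encodes macroH2A, a form found in silent chromatin, was at 41.5, 72.4 and 59.4 in BMDM and at 6.71, 8.48 and 7.86 in BSM, a 7.52-fold difference and a log2 fold change of 2.73 ± 0.267 (SE, adjusted p = 0.000142). The FPKM ratio of H2afy to H2afz overlapped between cell types, at 0.676 to 1.17 in BMDM and 0.626 to 1.05 in BSM, whereas in ALEXA-Seq values it was 0.197 to 0.295 in BMDM and 0.341 to 0.484 in BSM.

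H2afx, which encodes the H2A.X that is phosphorylated at DNA breaks, was at 4.96, 19.4 and 6.91 in BMDM and at 0, 0.104 and 0.205 in BSM. It was near 0 in BSM and, like H2afy, H2afv and H2afy2, highest in BMDM replicate 2; the log2 fold change was 3.17 ± 0.448 (SE, adjusted p = 0.000876). H2afv, a second H2A.Z gene, was at 6.37, 12.2 and 8.20 in BMDM and at 2.03, 0.680 and 1.05 in BSM, a log2 fold change of 2.14 ± 0.327 (SE, adjusted p = 0.00125). The ratio of H2afz to H2afv overlapped between cell types, at 5.08 to 10.2 in BMDM and 5.28 to 12.9 in BSM. H2afj was at 0.598 to 1.23 in BMDM and 0.0798 to 0.214 in BSM, H2afy2, the gene of a second macroH2A, at 0.0719 to 0.429 and 0 to 0.0188, and the other variant rows (H2afy3, H1fx, H2afb1 and H2afb3) did not pass 0.0537.

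Clustered and variant genes together took 0.185% to 0.307% of all FPKM in BMDM and 0.272% to 0.336% in BSM. The clustered share of histone FPKM was 35.3%, 54.0% and 38.0% in BMDM and 46.7%, 37.1% and 32.1% in BSM, so the groups overlapped (means 42.5% ± 10.1 and 38.6% ± 7.40, SD, n = 3 each). Variant FPKM summed to 195, 274 and 282 in BMDM and 100.4, 144 and 156 in BSM, and H3f3b alone gave most of it in BSM.

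In ALEXA-Seq values, which assign the same reads by another method, 37.1% of the 6364 entries tested were called higher in BMDM and 10.9% higher in BSM. Of 18 clustered entries tested, 10 were called higher in BMDM, 3 higher in BSM and 5 were not called, and of 6 variant entries 5, 0 and 1 (limma; H3f3b was higher in BSM at an unadjusted p under 0.05). Hist1h1c, Hist1h1d and Hist1h2be were again those higher in BSM, with log2 fold changes of -2.20, -2.65 and -2.24, and no member was called in opposite directions by both tables. These tables share their reads, so their likeness is no replication. Hist1h4d was at 793, 2842 and 1229 against 85.0, 99.3 and 87.2 in ALEXA-Seq units, and H2afz at 1344, 1462 and 1659 against 117, 139 and 109. Near-identical copies limit single genes: of 14 tested clustered genes matched to a transcript, 6 share at least 50% of their length with another gene at 95% identity or more (Hist2h3c1, Hist2h2ac, Hist1h2ak, Hist1h4f, Hist1h4a and Hist1h2ab), while Hist1h4d, Hist1h1b, Hist1h1c and Hist1h1d share none.

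Genes that make, process or deliver histones were then read from lists. Of 30 genes for histone mRNA supply 29 had a row and 19 were tested, with 14 called higher in BMDM, 0 higher in BSM and 5 not called, at a median log2 fold change of 1.16 against 0.81 for all tested genes, of which 45.3% and 9.22% were called. Of the 19, 10 reached the minimum in a BSM library. After quantile normalization 4 were called for BMDM and 2 for BSM. In this list and the next 2, limma gave 0 genes higher in BSM also at an unadjusted p under 0.05. Slbp, which binds the stem-loop of clustered mRNAs, was at 19.6, 37.7 and 28.4 in BMDM and at 4.78, 6.86 and 6.82 in BSM, a log2 fold change of 2.01 (adjusted p = 0.00104). Creb1, a transcription factor, was at 69.2 to 83.4 in BMDM and 36.9 to 47.1 in BSM (0.77, adjusted p = 0.0185), and Fip1l1, a cleavage factor subunit, at 41.1 to 70.0 and 18.3 to 28.5 (1.16, adjusted p = 0.0111). After quantile normalization neither Creb1 (adjusted p = 0.992) nor Fip1l1 (0.36, adjusted p = 0.332) was called. Zcchc11, a uridylyltransferase that acts in histone mRNA decay, was at 7.87 to 15.4 and 11.6 to 19.4 and was not called (-0.30, adjusted p = 0.439), but it was called higher in BSM after quantile normalization (-1.05, adjusted p = 0.0465).

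Of 27 histone chaperone genes 22 were tested, with 16 called higher in BMDM, 0 higher in BSM and 6 not called, at a median log2 fold change of 1.44, beside 45.3%, 9.22% and 0.81 for all tested genes; after quantile normalization 10 and 1 were called, and 16 of the 22 reached the minimum in a BSM library. By role, all 10 tested chaperones of H2A, H2B and their variants were called higher in BMDM at a median of 2.18, and 1 of the 5 tested chaperones of H3.3 was, at a median of 0.61. Dek, that 1 gene, was at 293 to 483 in BMDM and did not pass 46.8 in BSM (log2 fold change 3.64, adjusted p = 0.000752). Atrx, the H3.3 remodeller, was at 75.1 to 125 in BMDM and 54.8 to 85.2 in BSM and was not called (0.51, adjusted p = 0.146). Npm1, a nucleolar chaperone, was at 138 to 179 and 21.3 to 35.2 (2.49, adjusted p = 0.000184), and Anp32e, which removes H2A.Z from chromatin, at 56.5 to 95.3 and 4.52 to 9.22 (3.41, adjusted p = 0.000107).

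All 26 tested genes of 34 in the list for S phase and proliferation (32 with a row) were called higher in BMDM, at a median log2 fold change of 3.04, against 45.3% and 0.81 for all tested genes, and 24 after quantile normalization. Only 2 of the 26, Pcna and Lig1, reached the minimum in a BSM library, so the others passed through BMDM alone and had to be higher there. Mki67, the proliferation marker, was at 131, 86.6 and 146 in BMDM and at 0, 0.308 and 0.263 in BSM, and Top2a, the mitotic topoisomerase, at 74.7, 134 and 108 against 0.00401, 0.785 and 0.244. Pcna, the replication clamp, was at 28.4, 43.4 and 48.9 in BMDM and remained at 9.60, 16.4 and 16.5 in BSM (log2 fold change 1.44, adjusted p = 0.00600), and with Mcm3 it lost its call after quantile normalization (0.66, adjusted p = 0.125). Birc5 was at 25.2, 37.0 and 40.1 in BMDM and did not pass 0.221 in BSM. The cyclin and mitosis genes of the list summed to 357 to 509 in BMDM and 0.378 to 4.33 in BSM, beside the clustered H4 sums of 53.2 to 196 and 5.88 to 8.20; the part of dividing cells in the clustered levels was not tested.

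**Figure D5:**
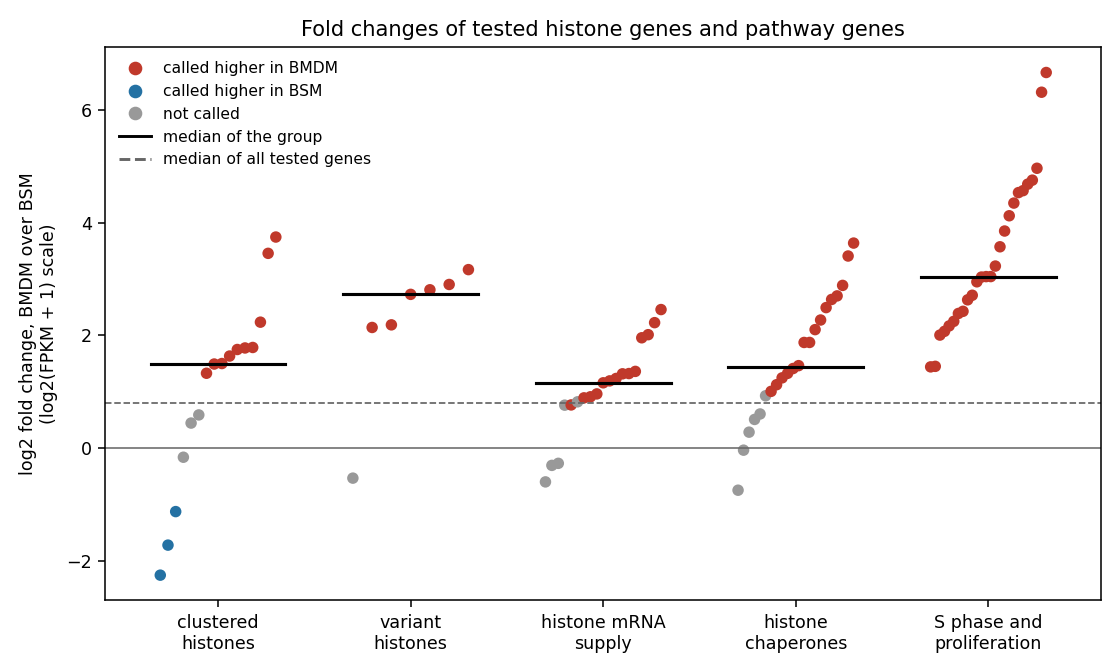
Log2 fold change (BMDM over BSM, on log2(FPKM + 1)) of each tested clustered and variant histone gene and of each tested gene of the 3 pathway lists, coloured by the limma call, with a solid bar at each median and a dashed line at 0.81, the median of all tested genes. Calls higher in BSM occur among the clustered histones alone, where they number 3.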

How the data were processed

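RNA-Seq libraries of 3 BMDM and 3 BSM sets were made by the authors from total RNA with the Ovation RNA-Seq method. Per the submitters' processing notes, tools included CASAVA 1.7.0, TopHat 1.3.1, Bowtie 0.12.7 and Cufflinks 1.0.3, with build mm9. The authors deposited FPKM per gene and library from Cufflinks. The authors also deposited ALEXA-Seq normalized expression values, a linear signal whose unit and settings are not given in the sources used here. Neither table holds read counts, so no counting interval is given; the study states read totals per library, which were not used here. There were 0 other per-sample columns.

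The 6364 genes that reached an FPKM of 3 in any library were tested on log2(FPKM + 1) with limma 3.58.1 (R 4.3.3), with a mean-variance trend and Benjamini-Hochberg adjustment; this scale understates changes of low genes. The 6364 ALEXA-Seq entries with the highest maximum were tested likewise. The code was tested on simulated data in which 200 of 6364 genes changed. It called 0 of the 200 at a log2 fold change of 1, 138 at 2 and 195 at 4. A gene that was not called may therefore still differ. Copies were found with blastn 2.17.0 (at least 100 bases); sequences came from GENCODE M21 and RefSeq.

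The members and the lists were chosen with earlier results of these data known. Values are given for the 10 clustered and 10 variant genes with the highest mean FPKM, and for the 4 highest genes of each pathway list; other genes are named where a count or a copy needed them. Alternatives changed the pseudocount, FPKM minimum, scaling, trend, block and libraries.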

Additional observations from a re-analysis of the deposited data

How the results depend on the processing

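All counts here are BMDM calls, then BSM calls, over the genes tested in FPKM unless ALEXA-Seq is named. The all-gene counts of 2883 and 587 became 1379 and 1051 with upper quartile scaling, 1378 and 1227 with quantile normalization, and 968 and 1585 with libraries scaled to the same sum; for ALEXA-Seq, 2359 and 691 became 1439 and 1349 with quantile normalization. Clustered calls higher in BMDM moved from 10 to 16 with an FPKM minimum of 1 (31 genes tested) and to 6 with quantile normalization, and the 3 calls higher in BSM were 3 or 4 in every alternative. Variant calls higher in BSM moved from 0 to 1 (H3f3b) with each of the 3 scalings and without BSM replicate 1. In ALEXA-Seq, clustered calls higher in BSM moved from 3 to 6 and variant calls from 0 to 1 with quantile normalization. Calls for histone mRNA supply moved from 14 and 0 to 4 and 1 (upper quartile) and to 4 and 2 (quantile, same sum), and those for chaperones from 16 and 0 to 10 and 1 (quantile) and to 8 and 1 (same sum). Leaving out 1 library at a time gave 2037 to 3194 and 461 to 738 calls over all genes (1452, without BMDM replicate 3, to 3082 and 519 to 902 in ALEXA-Seq), 9 to 10 and 3 for clustered genes, 6 and 0 to 1 for variants, and 8, without BMDM replicate 3, to 13 calls higher in BMDM for histone mRNA supply. The log2 fold change of Hist1h1e reversed to -0.35 (upper quartile), -0.31 (quantile) and -0.78 (same sum), and ranged from -0.12, without BMDM replicate 2, to 0.95 on leaving out 1 library; that of Hist1h3d reversed to -0.11, -0.13 and -0.50 under the same scalings. No other named member changed direction. Hist1h4c lost its call with the same sum (1.27, limma adjusted p = 0.0528) and Hist2h2ac with all 3 scalings. The cause of these shifts was not tested.

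No clear pairing by replicate number was seen. Same-numbered libraries correlated at -0.0195, -0.00836 and 0.134 in their deviations from the group means, and differently numbered ones at -0.113 to 0.0685. With 3 libraries a group these values cannot exclude a pairing, and by the labels same-numbered libraries share their sex. With the replicate block the counts were 2905 and 566 over all genes and 10 and 3 for clustered genes in FPKM, and in ALEXA-Seq 2251 and 634 over all genes, with variant calls higher in BSM at 1 in place of 0. With no read counts and 3 libraries a group, changes in genes near an FPKM of 0 could not be resolved. Members of near-identical sequence could take each other's reads, and single levels of such genes are uncertain in both tables.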
